A study of Mus musculus with 6 samples.

Results

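Neurons release transmitter from synaptic vesicles, and 30 genes of that machinery were followed here through motor neuron differentiation of mouse embryonic stem cells. The members are a list of presynaptic genes, matched by symbol and chosen with earlier results of these data known. All 30 of them had a row in each of the 6 libraries, among 31053 gene rows in all, and all 30 passed the filter on low counts over all cells and over neuron-high cells.

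The cells were embryoid bodies grown from HB9::GFP stem cells, a line with a motor neuron reporter, and taken at day 6. WT is labelled wild type, DeltaSP carries the genotype lncMN2_SP-/- and KO the genotype lncMN2-/-, both made by CRISPR/Cas9 at the locus of a long non-coding RNA. Each genotype had 2 libraries, and per the series' design text 2 clones were taken for each condition. A p-value below thus measures the spread between the 2 libraries of a genotype, where clone and library cannot be told apart. Over all cells the transcript 5330434G04Rik, the gene known as lncMN2, stood at 37.4 and 34.8 CPM in WT, 22.4 and 23.3 in DeltaSP, and 0.124 and 0.170 in KO.

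In a resting terminal, vesicles are filled, tethered by synapsins and Rab3 proteins, and docked at the active zone by the scaffolds and priming factors Rims, Unc13, Bassoon, Piccolo and Erc. The SNARE proteins Snap25, syntaxin and synaptobrevin (the Vamp genes) then pull vesicle and plasma membrane together. Complexins hold the assembled complex, synaptotagmins such as Syt1 sense calcium and trigger fusion, and Nsf with its adaptor Napb takes the spent complex apart. Many of these genes are kept low outside neurons by the repressor REST and rise while a neuron matures and grows its axon, the phase in which the growth cone protein Gap43 is abundant.

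The stretches below come from RefSeq's promoter windows on GRCm38.p6. Syt1 and Stx1a are shown because they were among the members that fell in KO. Syn1 is shown because it alone among the 24 members with a window carried a REST half-element there. Windows were available for 24 of the 30 members, 30 windows in all. Bases that GENCODE M21 places inside the gene were left off. Capitals mark 3 motifs searched on both strands, which were TTCAGCACC (the left part of the element bound by REST), TGACGTCA (the cyclic AMP response element, its own reverse complement) and GGGCGG (the GC box). The Syt1 stretch (chr10:109010983-109011225, minus strand) and the Stx1a stretch (chr5:135023232-135023481, plus strand) precede genes that fell. The Syn1 stretch (chrX:20921005-20921168, minus strand) holds the first and the second motif, which do not overlap.
Syt1: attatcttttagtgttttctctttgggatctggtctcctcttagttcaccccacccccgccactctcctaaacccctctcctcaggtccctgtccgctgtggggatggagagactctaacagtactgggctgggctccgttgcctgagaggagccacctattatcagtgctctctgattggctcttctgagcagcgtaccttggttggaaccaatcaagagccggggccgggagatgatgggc
Stx1a: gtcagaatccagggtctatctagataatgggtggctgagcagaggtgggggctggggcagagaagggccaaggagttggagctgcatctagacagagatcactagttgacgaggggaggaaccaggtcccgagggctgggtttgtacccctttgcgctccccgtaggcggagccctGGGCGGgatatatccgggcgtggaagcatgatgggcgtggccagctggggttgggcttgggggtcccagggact
Syn1: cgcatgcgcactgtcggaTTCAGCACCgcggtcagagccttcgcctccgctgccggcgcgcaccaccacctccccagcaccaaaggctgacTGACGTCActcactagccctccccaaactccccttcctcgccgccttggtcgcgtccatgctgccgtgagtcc

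TTCAGCACC was present in 0.301% of the 32851 mouse windows of the same length, and in Syn1 alone of the 24 members. TGACGTCA was present in 1.55% of windows and again only in Syn1 among them. GGGCGG was present in 32.7% of windows and in 17 of the 30 windows of members, which belonged to 17 of the 24 members. Syt1 is among the 17, but its match reaches into the bases left off, so no capitals mark it above. A match describes letters in the window and no more.

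The deposited files held 24215 cell barcodes, of which 16225 were kept, with 24191242 to 49061693 UMIs per library. WT 1 stood apart in depth. Its kept cells had 4157 UMIs at the median, while the medians elsewhere ran from 11898.5 to 15112, and it supplied most cells of clusters 4, 5 and 10. Pairs of libraries shared 3 to 11 barcodes. To compare cells at 1 depth, each was thinned to 3000 UMIs, which left out 1499 kept cells, 936 of them from WT 1. Cells with at least 10 of those UMIs from 15 pan-neuronal genes, none of them a member, are called neuron-high below, and cells with at most 2 neuron-low. Neuron-high cells were 47.7% and 44.3% of thinned cells in WT, 38.0% and 28.3% in DeltaSP, and 29.0% and 26.0% in KO. This class is a range of a score and not a cell type, and 4.23% to 7.77% of cells lay within 2 UMIs of its limit.

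Levels below are CPM, UMIs of a gene per 1000000 UMIs in a library's summed cells, scaled by TMM unless called plain. Each molecule was counted once from its 3' end, so that no division by transcript length was made. Comparisons used edgeR's quasi-likelihood test with Benjamini-Hochberg adjustment over all genes tested, two-sided, and a member passed at an adjusted p under 0.05. Errors of log2 fold changes are SE of that fit over 2 libraries a group.

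The machinery as a whole was a small share of the RNA. Over all cells the 30 genes took 0.220% and 0.279% of UMIs in WT, 0.219% and 0.149% in DeltaSP, and 0.158% and 0.130% in KO. Gap43 and Sncg, which encodes gamma-synuclein, made up 57.3% to 68.6% of those UMIs. Over neuron-high cells the share was 0.402% and 0.518% in WT, 0.455% and 0.393% in DeltaSP, and 0.395% and 0.361% in KO. Over all cells the 15 pan-neuronal genes together stood at a plain CPM of 8621 and 11709.5 in WT, 9510.1 and 6725 in DeltaSP, and 7495 and 6542 in KO.

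Most members belonged to neuron-high cells, and a few did not. In plain CPM, 28 of the 30 genes were higher in neuron-high than in neuron-low cells in all 6 libraries. The share of all genes with that order was not counted. Sncg had the largest median fold over libraries among the members, 41.6 (range 27.7 to 60.3), ahead of Syngr3 at 22.3, Syt1 at 21.6, Syt4 at 20.5, Gap43 at 18.6, Rab3a at 18.4 and Snap25 at 17.4. The folds of Rab3a lay close together, from 16.4 to 18.9. Other members differed little between the classes. Nsf, the ATPase that every cell uses for membrane traffic, had a median fold of 1.42 (1.33 to 1.55), and the complexin Cplx2 had 1.59 (1.35 to 1.90). The priming factor Rims2 had 2.31 (2.10 to 2.79). The exceptions were the synaptogyrin Syngr1, higher in neuron-high cells in 1 of 6 libraries with a median fold of 0.631, and the synaptobrevin Vamp1, higher in 2 of 6 with 0.919. Vamp1 rested on as few as 6 UMIs in a library's neuron-low cells.

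**Figure D1:**
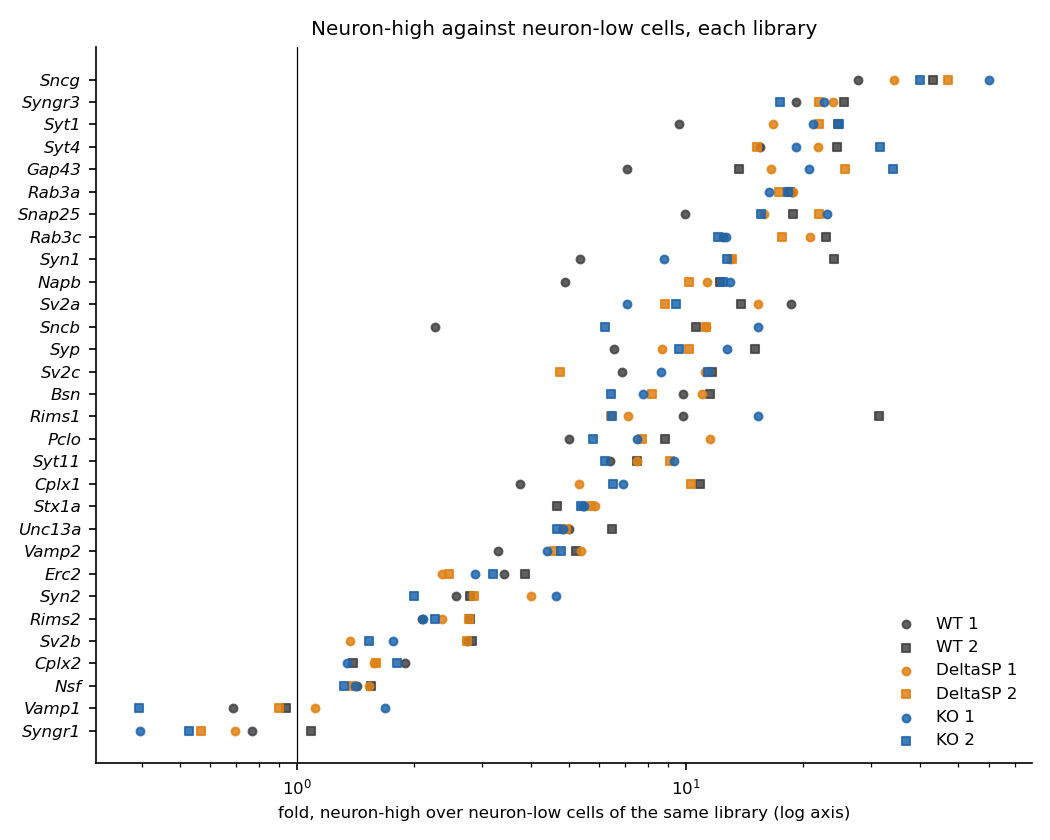
Fold of plain CPM in neuron-high over neuron-low cells on a log axis for each of the 30 genes, 1 point per library (circles for library 1 and squares for library 2 of WT, DeltaSP and KO), ordered by median. Sncg lies farthest right with a median of 41.6, while Nsf lies near 1 and Syngr1 falls below 1 in 5 libraries.

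The members also differed between clusters of neurons. Clusters were made without the 30 genes and without 64 other presynaptic genes, and the values are plain CPM in libraries with at least 20 cells of both clusters. Cluster 7, led by Sst, Prph and Scg2, and cluster 6, led by Cldn3, Cntn2 and Slc10a4 with Lhx4 and Isl2, were both motor neuron-like, with medians of 89 and 43 pan-neuronal UMIs per thinned cell. In the 5 libraries that qualified, WT 1 not among them, 25 of the 30 members were higher in cluster 7 in every library. How many of all genes kept that order was not counted. Syt1 ran from 31.2 to 59.5 in cluster 7 and from 7.60 to 14.2 in cluster 6. Sncg ran from 1579.9 to 2556 in cluster 7 and from 314 to 538 in cluster 6. The members without that order in all 5 libraries were Vamp1, Cplx2, Unc13a, Bsn and Nsf. Unc13a, the priming factor, ran from 34.5 to 46.2 in cluster 7 and from 32.6 to 37.9 in cluster 6, and was higher in cluster 7 in 4 of the 5 libraries.

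The neuron clusters differed among themselves in single members. Cluster 13, with Phox2a, Lypd1 and Rgs4 among its leading genes, exceeded cluster 7 in every library for Syt4, Snap25, Syn2, Pclo and Syngr3, and lay below it in every library for 9 members, Vamp2, Sv2b, Rab3a, Rab3c, Rims2, Bsn, Gap43, Sncg and Nsf. Syt4, an atypical synaptotagmin, ran from 163 to 532 in cluster 13 and from 84.0 to 162 in cluster 7. The orders of Sv2b and Syn2 rest on low levels. Sv2b was at 0.0 in cluster 13 and ran from 0.51 to 4.41 in cluster 7. Syn2 ran from 6.26 to 9.34 in cluster 13 and from 3.11 to 6.53 in cluster 7. DeltaSP 1 had only 23 cells in cluster 13. The interneuron-like clusters 11 (led by Pnoc, Mab21l2 and Foxd3, with Tal1, Lhx5 and En1) and 12 (with Prl3d1, Calb2 and Shox2 among its leading genes) both exceeded cluster 7 for Sv2a, Rab3c, Cplx2 and Sncb. In all, cluster 11 was above cluster 7 in every library for 5 members and below it for 12, and cluster 12 above it for 5 and below it for 6. Rab3c, a vesicle GTPase, ran from 117 to 193 in cluster 12, from 55.7 to 119 in cluster 11 and from 45.7 to 90.2 in cluster 7. In contrast, Gap43 ran from 461 to 856 in cluster 11 against 2683 to 3014 in cluster 7, and Sncg from 108 to 377 against 1579.9 to 2556. These are descriptions of clusters and carry no test, and the matching shares of all genes were not counted.

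**Figure D2:**
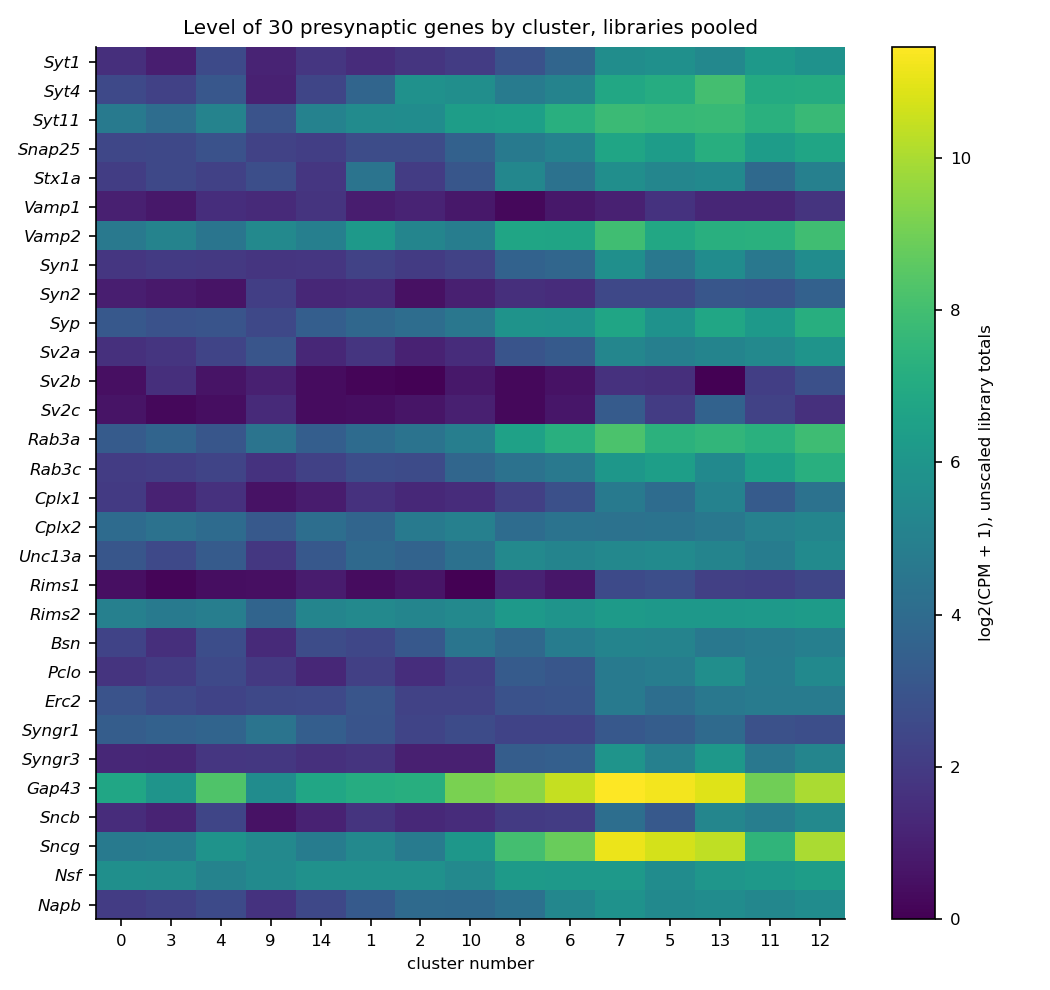
Level of the 30 genes as log2(CPM + 1) of plain CPM, libraries pooled, in 15 clusters by number, progenitor-like and other clusters on the left and neuronal clusters on the right. Gap43 and Sncg are brightest in cluster 7, Syt4 and Snap25 in cluster 13, and Rab3c in cluster 12, while Nsf is between 34.4 and 81.3 CPM.

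KO was compared with WT first, to ask how the machinery stood in the genotype with almost none of the targeted transcript. Over all cells 10 of the 30 members passed the test, all of them lower in KO, against 4.71% of the 14900 genes tested that passed as lower. They were the synaptotagmins Syt1, Syt4 and Syt11, the syntaxin Stx1a, Rab3c, the active zone genes Unc13a, Rims1 and Bsn, and Gap43 and Sncg. The log2 fold change was below 0 for 29 of 30 members, against 49.9% of genes, and its median was -0.90 against 0.00 over all genes. With library totals alone for scaling 27 of 30 were below 0 and 4 of the members passed as lower, while genes that passed as higher went from 419 to 1539. The 2 KO libraries lay below the 2 WT libraries for 25 members, against 29.3% of genes. Over all cells, fewer neurons and less RNA per neuron cannot be told apart. None of the 10 passed without WT 1, without KO 1 or without KO 2, and 10 passed without WT 2.

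The synaptotagmins fell together. Syt1, the calcium sensor of fast release (chr10:108497650-109010982, minus strand, GRCm38), stood at 25.4 and 22.0 CPM in WT, 16.5 and 11.5 in DeltaSP, and 9.49 and 6.93 in KO. The 3 genotypes did not overlap, and KO was 2.89-fold lower than WT (log2 fold change -1.53 ± 0.24, edgeR adjusted p = 0.0271). Syt11, which does not bind calcium in the usual way, stood at 127 and 124 in WT, 92.6 and 69.4 in DeltaSP, and 64.6 and 57.3 in KO (-1.04 ± 0.17, edgeR adjusted p = 0.0288). Syt4 stood at 69.2 and 77.1 in WT, 53.1 and 30.4 in DeltaSP, and 35.5 and 29.1 in KO (-1.18 ± 0.26, edgeR adjusted p = 0.0423). The DeltaSP and KO libraries overlapped for Syt4 and not for Syt11.

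Of the 4 SNARE genes only Stx1a passed. Stx1a, the plasma membrane syntaxin, stood at 21.9 and 25.1 CPM in WT, 17.7 and 12.98 in DeltaSP, and 13.04 and 11.9 in KO (-0.91 ± 0.19, edgeR adjusted p = 0.0402). Vamp2, the main synaptobrevin of vesicles and the most abundant SNARE gene here, stood at 61.9 and 114 in WT, 107 and 76.0 in DeltaSP, and 66.8 and 60.9 in KO. WT 1 lay among the KO libraries for Vamp2, and the difference of -0.46 ± 0.29 did not pass (edgeR adjusted p = 0.323). Snap25, at 37.6 and 58.9 in WT and 26.2 and 20.8 in KO, did not overlap between those groups and did not pass (-1.04 ± 0.29, edgeR adjusted p = 0.0688). Vamp1, near 1 CPM, gave -0.23 ± 0.47.

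Neither gene of SNARE disassembly passed. Nsf was the only member with a log2 fold change above 0, at 49.3 and 49.0 CPM in WT, 62.2 and 58.8 in DeltaSP, and 58.5 and 55.2 in KO (0.21 ± 0.12, edgeR adjusted p = 0.291). Both WT libraries lay below the other 4 for Nsf. Napb gave -0.56 ± 0.19.

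Of the Rab3 genes, Rab3c passed and Rab3a did not. Rab3c (chr13:110054187-110280996, minus strand) stood at 44.4 and 35.8 CPM in WT, 25.5 and 15.4 in DeltaSP, and 13.6 and 13.98 in KO, 2.91-fold lower in KO than in WT (-1.54 ± 0.25, edgeR adjusted p = 0.0288). Rab3a, the more abundant of the pair, stood at 72.2 and 124 in WT, 96.8 and 74.7 in DeltaSP, and 56.5 and 58.5 in KO (-0.77 ± 0.25, edgeR adjusted p = 0.0984). The WT libraries differed more from each other for Rab3a than for Rab3c.

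Of the 6 active zone genes 3 passed. Bsn, which encodes the scaffold Bassoon, stood at 21.1 and 18.7 CPM in WT, 14.8 and 10.4 in DeltaSP, and 9.96 and 8.95 in KO (-1.08 ± 0.21, edgeR adjusted p = 0.0356). Its exons share bases with those of Gm47303 on the same strand, the only such overlap among the 30 members, so part of its UMIs may be uncertain. Unc13a stood at 28.6 and 23.4 in WT, 20.4 and 16.2 in DeltaSP, and 15.8 and 14.7 in KO (-0.77 ± 0.18, edgeR adjusted p = 0.0490). Rims1, a priming scaffold, was a low gene, at 2.78 and 2.03 in WT, 1.57 and 1.18 in DeltaSP, and 0.934 and 0.568 in KO, the last from 30 and 20 UMIs (-1.67 ± 0.40, edgeR adjusted p = 0.0499). Rims2 was the most abundant of the 6, at 55.7 and 48.5 in WT, 45.0 and 42.1 in DeltaSP, and 43.8 and 37.1 in KO, and did not pass (-0.37 ± 0.15). Pclo (-0.83 ± 0.29) and Erc2 (-0.50 ± 0.23) did not pass either.

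Gap43 and Sncg passed and Sncb did not. Gap43 (chr16:42248442-42340651, minus strand) stood at 1127 and 1064 CPM in WT, 817 and 606 in DeltaSP, and 616 and 465 in KO (-1.02 ± 0.23, edgeR adjusted p = 0.0448). Sncg (chr14:34370274-34374789, minus strand) stood at 609 and 868 in WT, 513 and 381 in DeltaSP, and 314 and 201 in KO, 2.87-fold lower in KO than in WT (-1.52 ± 0.29, edgeR adjusted p = 0.0340). The 3 genotypes did not overlap for Sncg. Sncb, beta-synuclein, stood at 9.74 and 12.2 in WT, 4.94 and 3.75 in DeltaSP, and 3.64 and 7.78 in KO, with both mutants below WT and overlapping each other (-0.94 ± 0.36).

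The synapsins, complexins and vesicle membrane proteins had no member that passed. Syn1 stood at 12.01 and 22.4 CPM in WT, 17.2 and 10.1 in DeltaSP, and 10.1 and 8.69 in KO (-0.88 ± 0.35). Syp, the classical vesicle marker synaptophysin, stood at 34.6 and 54.9 in WT, 46.1 and 27.0 in DeltaSP, and 30.1 and 24.8 in KO (-0.71 ± 0.30). Cplx2 stood at 20.7 and 22.0 in WT, 19.7 and 16.4 in DeltaSP, and 16.3 and 15.7 in KO (-0.42 ± 0.16). For all 3 genes both KO libraries lay below both WT libraries. Cplx1 had the largest log2 fold change of the members that did not pass, -1.49 ± 0.41 (edgeR adjusted p = 0.0664), with the WT libraries at 7.08 and 15.8. Syn2 gave -0.63 ± 0.29. The vesicle glycoproteins Sv2a, Sv2b and Sv2c gave -0.997 ± 0.28, -1.01 ± 0.48 and -0.81 ± 0.54, and the synaptogyrins Syngr3 and Syngr1 gave -1.03 ± 0.33 and -0.11 ± 0.20.

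**Figure D3:**
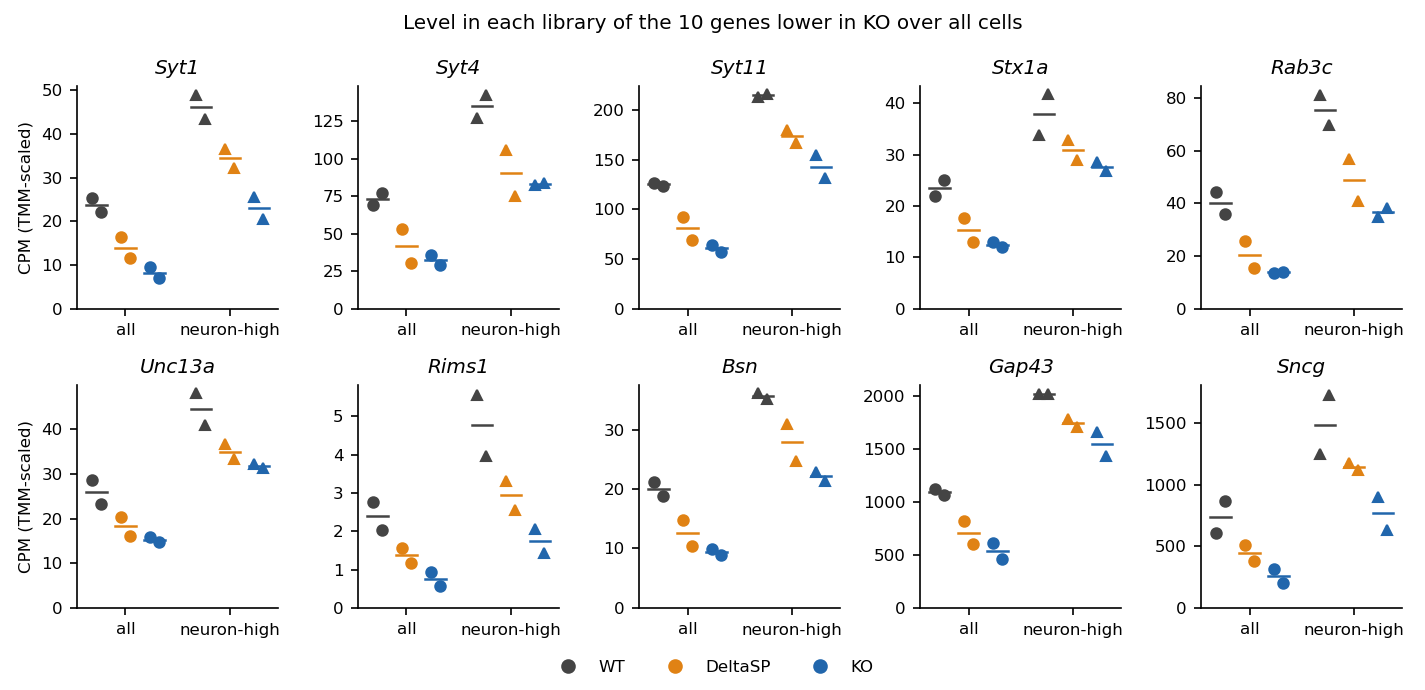
TMM-scaled CPM in each library for the 10 members that passed in KO against WT over all cells, with all cells as circles on the left and neuron-high cells as triangles on the right of each panel, bars at group means of n = 2. In all 10 panels both KO libraries lie below both WT libraries, over all cells and over neuron-high cells.

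Since neuron-high cells were scarcer in KO, the same comparison was made within them. WT 1 differed from the other libraries, WT 2 among them, in the clusters that held its neurons. WT 1 had 977 cells in cluster 5 and 11 and 7 in clusters 6 and 7. In cluster 5 WT 2 had 55 cells, DeltaSP 1 and DeltaSP 2 had 28 and 33, and KO 1 and KO 2 had 6 and 9. WT 2 had 114 cells in cluster 6 and 254 in cluster 7, against 167 and 139 in KO 1 and 166 and 104 in KO 2, and most members were higher in cluster 7 as given above. The part of this makeup in the differences below was not tested. Of the 30 members 2 passed, Syt1 and Rab3c, both lower in KO, against 2.99% of 13058 genes that passed as lower. Syt1 stood at 48.9 and 43.5 CPM in WT, 36.7 and 32.3 in DeltaSP, and 25.5 and 20.6 in KO (-1.002 ± 0.17, edgeR adjusted p = 0.0266). Rab3c stood at 81.1 and 69.8 in WT, 56.9 and 40.9 in DeltaSP, and 34.9 and 38.1 in KO, 2.06-fold lower in KO than in WT (-1.04 ± 0.19, edgeR adjusted p = 0.0297). For both genes the 3 genotypes did not overlap. The member with the next smallest p was Bsn, at 36.1 and 35.1 in WT, 31.0 and 24.8 in DeltaSP, and 22.8 and 21.4 in KO, which did not pass (-0.69 ± 0.16, edgeR adjusted p = 0.0552). With 1 library left out at a time, the log2 fold change of Syt1 ran from -1.16 to -0.85 and that of Rab3c from -1.14 to -0.91. Neither gene was called in every one of these fits, and the calls over all genes shifted as well.

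Within neuron-high cells 29 of 30 members again had a log2 fold change below 0, against 49.0% of genes, and their median was -0.44 against 0.01. That number was 22 without WT 2 and 24 with library totals alone for scaling. The KO libraries lay below the WT libraries for 16 members, a larger share than the 25.7% of genes. For 27 members the log2 fold change lay nearer to 0 than over all cells, a difference that was not tested. Gap43 stood at 2026 and 2020.4 CPM in WT, 1784 and 1712 in DeltaSP, and 1661 and 1440.2 in KO (-0.38 ± 0.19, edgeR adjusted p = 0.258). Sncg stood at 1247 and 1733 in WT, 1175 and 1122 in DeltaSP, and 904 and 631 in KO (-0.96 ± 0.25, edgeR adjusted p = 0.0675). For both of these genes KO stayed below WT without overlap. Syngr1 was the member that moved farther from 0 by the most, with 9.32 and 8.80 in WT, 6.59 and 6.42 in DeltaSP, and 4.84 and 5.26 in KO (-0.84 ± 0.22, edgeR adjusted p = 0.0673). Vamp2 (-0.07 ± 0.30), Napb (-0.07 ± 0.15), Syp (-0.22 ± 0.27) and Rab3a (-0.23 ± 0.24) lay near 0.

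**Figure D4:**
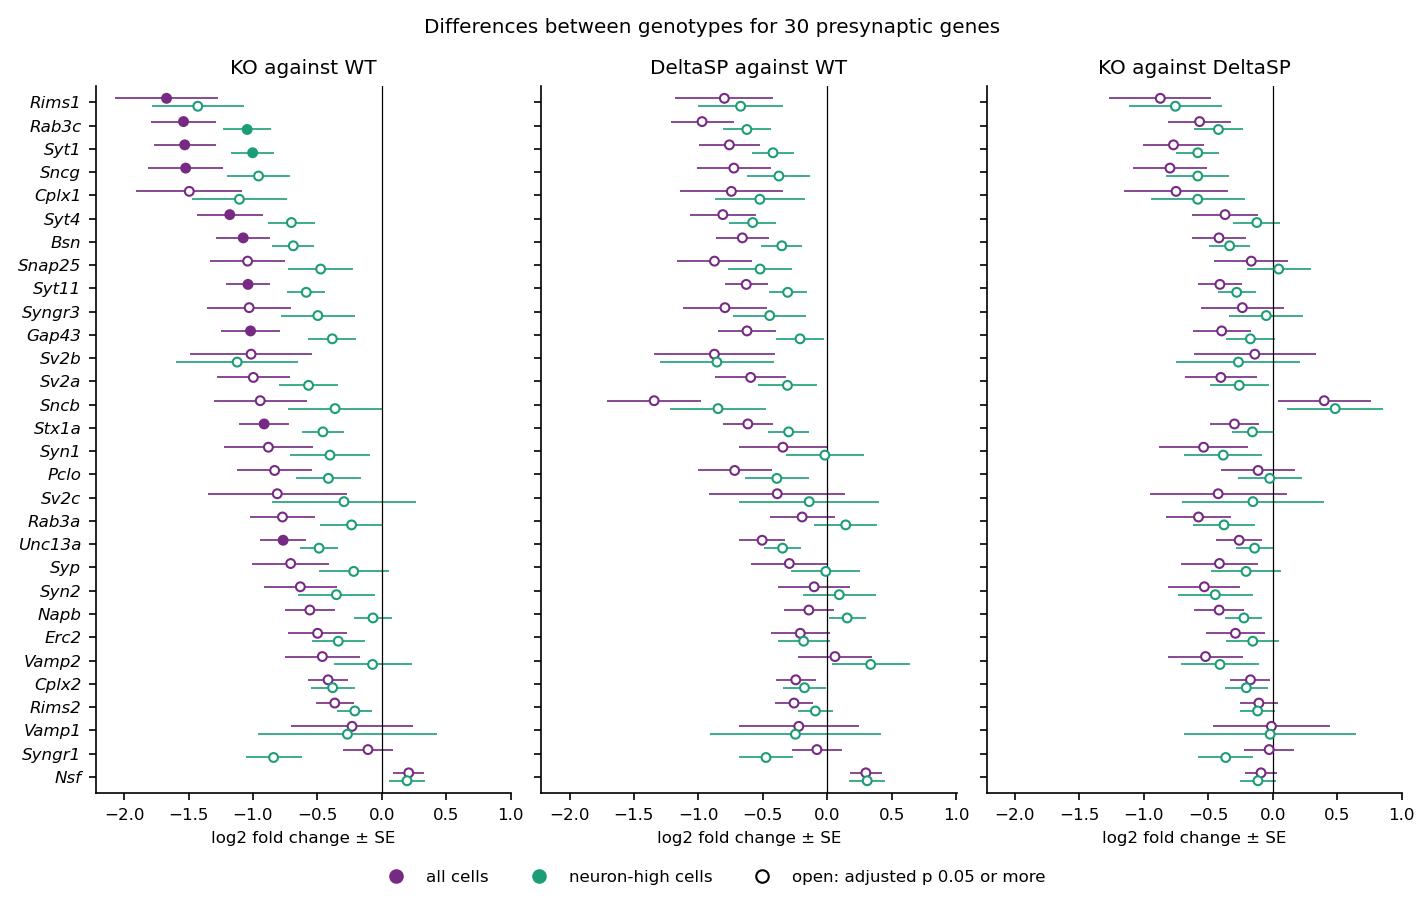
Log2 fold change ± SE of all 30 members in the 3 comparisons, over all cells and over neuron-high cells, with filled points at an edgeR adjusted p under 0.05. In KO against WT, 10 points are filled over all cells and 2 over neuron-high cells, Rab3c and Syt1, while no point is filled in the other comparisons.

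The median of pan-neuronal UMIs in neuron-high cells was 49 and 65 in WT, 56 and 51 in DeltaSP, and 46 and 48 in KO, so the members were also followed in 5 bins of pan-neuronal UMIs from 10 to over 80. KO lay below WT without overlap in 4 or 5 of the 5 bins for 11 members, against 11% of genes, and above it in as many bins for 0 members. Rab3c, Gap43, Sncg and Cplx1 did so in all 5 bins, and Syt1, Syt4, Syt11, Bsn, Cplx2, Sv2a and Syngr3 in 4. In cells with 60 to 79 pan-neuronal UMIs, Rab3c stood at 125 and 86.3 CPM in WT, 81.9 and 43.8 in DeltaSP, and 44.3 and 46.9 in KO. In the same bin Sncg stood at 2111 and 2000.3 in WT, 1329 and 1356 in DeltaSP, and 990 and 697 in KO. WT 1 was the highest library for Rab3c in that bin, and both WT libraries were the highest for Sncg. Nsf lay below WT in no bin, and Vamp2 and Sv2c overlapped in all 5.

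DeltaSP lay below WT in 4 or 5 bins for 5 members, against 6.89% of genes, namely Sncg in 5 and Rab3c, Snap25, Stx1a and Syngr3 in 4. KO lay below DeltaSP for 5 members, against 6.83% of genes, namely Rab3a in 5 and Sncg, Syt1, Syt11 and Vamp2 in 4. These comparisons share libraries, so their lists are not independent of each other.

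**Figure D5:**
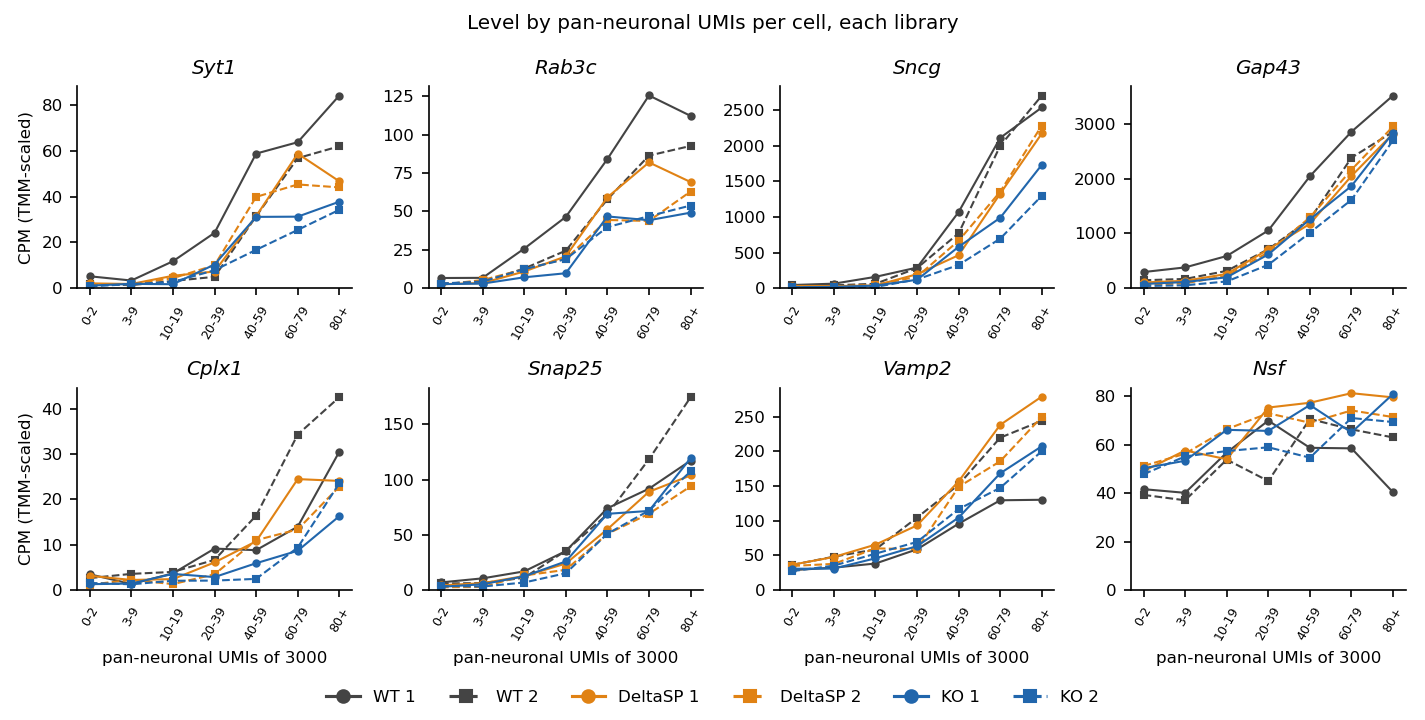
TMM-scaled CPM of 8 members against pan-neuronal UMIs per cell, in 7 bins of cells thinned to 3000 UMIs, 1 line per library (circles with solid lines for library 1, squares with dashed lines for library 2). Syt1, Rab3c, Sncg and Gap43 are higher in the last bin than in the first in every library, and are lower in KO than in WT at 60 to 79 UMIs, while Nsf stays between 37.1 and 81.3 CPM.

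In neuron-low cells 28 members could be tested, Sv2c and Rims1 being too low. Only Sncg passed in KO against WT, against 1.33% of 13211 genes that passed as lower. It stood at 46.4 and 39.97 CPM in WT, 34.0 and 23.9 in DeltaSP, and 14.7 and 15.7 in KO (-1.50 ± 0.20, edgeR adjusted p = 0.0380), from 159 to 536 UMIs per library. Neuron-high cells were also a smaller share of the KO libraries, and the part of free RNA from them in these UMIs was not tested.

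DeltaSP was compared with WT to ask what the other edit at the locus left. No member passed over all cells or over neuron-high cells by edgeR, while 14 and 4 members had an unadjusted p under 0.05, against 17.1% and 14.4% of genes. DESeq2's Wald test called 3 and 0 as lower, against 2.02% and 0.942% of genes. Few genes passed as lower in these comparisons, 0.0671% over all cells and 0.00766% over neuron-high cells. Over all cells 28 of 30 log2 fold changes were below 0, against 51.4% of genes, with a median of -0.61 that became -0.37 without DeltaSP 2. The libraries lay below WT without overlap for 17 members, against 23.1% of genes. The members with the smallest p were Rab3c (-0.97 ± 0.24, edgeR adjusted p = 0.164), Syt11 (-0.63 ± 0.17, edgeR adjusted p = 0.175) and Sncb (-1.34 ± 0.36, edgeR adjusted p = 0.176). Over neuron-high cells Syt4 stood at 127 and 143 CPM in WT, 106 and 75.1 in DeltaSP, and 82.2 and 83.8 in KO. The members with the smallest p there were Rab3c (-0.62 ± 0.19), Syt4 (-0.58 ± 0.18) and Syt1 (-0.42 ± 0.16), with an edgeR adjusted p of 0.221 or more. There 15 members lay below WT without overlap, against 21% of genes. The median there was -0.31, and it became -0.14 without WT 2, with 19 of 30 below 0, and -0.19 without DeltaSP 2.

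KO and DeltaSP were then set against each other. No member passed in either set of cells by edgeR or by DESeq2's Wald test, where DESeq2 called 0.671% of genes as lower over all cells and 1.03% over neuron-high cells. At an unadjusted p under 0.05 there were 3 members over all cells, against 5.46% of genes, and 2 over neuron-high cells, against 6.07%. Genes that passed as lower were 0.00671% over all cells and 0.0153% over neuron-high cells. Over all cells 29 of 30 log2 fold changes were below 0, against 50.7% of genes, with a median of -0.40. Without DeltaSP 1 the number was 21 and the median -0.12, and without KO 2 they were 26 and -0.26. KO lay below DeltaSP without overlap for 15 members over all cells, against 21.1% of genes, and for 16 over neuron-high cells, against 22.7%. The smallest p-values over all cells belonged to Syt1 (-0.77 ± 0.24), Sncg (-0.80 ± 0.29) and Syt11 (-0.41 ± 0.17), with an edgeR adjusted p of 0.844 or more. Over neuron-high cells they belonged to Syt1 (-0.58 ± 0.17), Sncg (-0.58 ± 0.25) and Rab3c (-0.42 ± 0.19). Sncb was the only member above 0 over all cells, at 0.40 ± 0.36.

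Other genes of the terminal were read from a list of 64, of which 62 could be tested. In KO against WT over all cells 10 of them passed as lower, against 4.71% of genes, and 1 as higher, against 2.81%. Among those with the smallest p were Dnm3, a dynamin of membrane scission (-1.99 ± 0.28, edgeR adjusted p = 0.0258), and the presynaptic adhesion gene Nrxn2 (-1.55 ± 0.23, edgeR adjusted p = 0.0262). Nrxn2 stood at 73.6 and 77.3 CPM in WT, 51.3 and 31.2 in DeltaSP, and 24.1 and 27.4 in KO. Syngr2, a synaptogyrin found widely outside neurons, passed as higher, at 16.7 and 25.6 in WT, 39.3 and 49.8 in DeltaSP, and 49.3 and 59.4 in KO (1.36 ± 0.23, edgeR adjusted p = 0.0301). Within neuron-high cells 4 passed as lower, against 2.99% of genes, with Dnm3 at -1.48 ± 0.23. Syngr2 passed as higher in these cells at 1.71 ± 0.23, against 1.18% of genes. Syngr2 there stood at 4.53 and 4.68 in WT and 13.4 and 16.7 in KO, while the member Syngr1 ran the other way.

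Of the 15 pan-neuronal genes 8 passed as lower in KO over all cells, against 4.71% of genes. Neuron-high cells were chosen by the UMIs of these same genes, so their values within that class are given with no test. Stmn2, a microtubule regulator of growing axons, gave -1.18 ± 0.25 over all cells (edgeR adjusted p = 0.0392) and a value of -0.58 ± 0.22 over neuron-high cells. Tubb3, the neuronal tubulin, gave -0.57 ± 0.23 over all cells, which did not pass, and 0.03 ± 0.22 over neuron-high cells. The part of the pan-neuronal level, and of the lower depth of WT 1, in the members' differences was not tested.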

How the data were processed

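Single-cell RNA-seq was done with the 10x 3' kit on 6 libraries. The authors deposited raw UMI counts per gene and barcode, made with Cell Ranger 4.0 on mm10, per the series' design text and the submitters' processing notes. The labels give more than 1 version of the kit. Kept cells had 1000 genes or more, and mitochondrial UMIs of no more than 10%; no doublet caller was run. Counts were summed per library and tested with edgeR 4.0.16 (TMM, filterByExpr, glmQLFit with all 6 libraries, R 4.3.3) across all genes. DESeq2 1.42.0 gave the alternative test. Clusters came from scanpy 1.11.5 with leidenalg 0.10.2, on 2000 variable genes, 30 components and 15 neighbours at resolution 0.6, without integration. The fit was tested on simulated data.

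The members, lists and tests were chosen with earlier results of these data known. Values per library are given for members that passed, for the most abundant member of each role, and, where fewer than 3 passed, for the 3 with the smallest p. Some items are not reported here. Promoter windows are RefSeq's, and positions GENCODE M21's. With 2 libraries a genotype, p-values measure the spread between those libraries only, where clone and library cannot be told apart. The replicate numbers were not used as pairs in the main fit. Alternatives were other scalings, filters, tests, cell classes and samples.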

Additional observations from a re-analysis of the deposited data

How the results depend on the processing

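In KO against WT over all cells the 10 members that passed as lower became 4 with library totals alone for scaling, 19 with no filter on low counts and 15 with DESeq2's Wald test. Genes that passed as lower went from 702 of 14900 to 549 with library totals, 1833 of 22804 with no filter and 1430 of 14900 with DESeq2. Leaving out 1 replicate at a time changed the calls of members and of all genes, and not every such fit called the 10. Over neuron-high cells the 2 became 1 with library totals, 9 with no filter, 8 with DESeq2's Wald test and 4 without the deepest 5% of cells, and 0 to 6 with 1 replicate left out, while all genes that passed as lower went from 390 to 372 with library totals, 1169 with no filter, 801 with DESeq2 and 506 without the deepest cells. In DeltaSP against WT over all cells the count of 0 became 8 with no filter, where 653 of 22804 genes passed as lower. It became 3 with DESeq2's Wald test, where 301 of 14900 genes did. Over neuron-high cells it became 1 with no filter, where 404 of 20568 genes passed as lower. In KO against DeltaSP over all cells the count of 0 became 2 with no filter, where 382 of 22804 genes passed as lower. The cause of these shifts was not tested.

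Library totals moved the median log2 fold change of all genes in KO against WT by 0.25 over all cells and 0.27 over neuron-high cells, and 27 and 24 of the 30 members were then below 0. With the replicate block 11 and 2 members passed in KO against WT. The deviations of same-numbered libraries correlated at -0.02 to 0.14 over all cells and -0.07 to 0.18 over neuron-high cells. Such values cannot settle whether same-numbered libraries were handled together. Added after seeing the data, removal of a trend with transcript length gave 7 and 2, and a class from 40 pan-neuronal UMIs gave 3. Without WT 2, 22 of 30 members were below 0 over neuron-high cells, against 29 with every library. Depth limits Vamp1, Sv2b, Sv2c, Rims1 and Syn2, which rested on 18 to 109 UMIs per library over all cells.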
